A study of Homo sapiens with 2 samples.

Results

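The mitochondrial proteases and the mitochondrial stress relay described here are 10 genes: LONP1, CLPP, CLPX, YME1L1, AFG3L2, SPG7, OMA1, DELE1, ATF5 and FGF21. They were taken by symbol from the platform annotation without a threshold on their values, although the list was drawn up with earlier results of these data known. Each of the 10 had 1 probe set annotated to it alone, so 10 of 33297 probe sets, or 10 of 18417 genes with a probe set of their own, are covered. The samples were 2 cultures of K562, an established line from chronic myeloid leukaemia that grows as erythroid-like blasts, and both carried an inducible short hairpin RNA against BMI1, a Polycomb repressor. One culture, K562+shBMI1+doxycycline, was kept with the drug for 96 h. The control culture, K562+shBMI1, received none, and its time in culture is not labelled. Each group held 1 sample, so there is no replicate error, no test and no p-value, and every difference below describes these 2 arrays only. Doxycycline switches the hairpin on, and as a tetracycline it is also known to inhibit translation on mitochondrial ribosomes. As 0 samples received the drug without the hairpin, the drug, the hairpin and any other difference between the cultures cannot be told apart.

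Mitochondria hold their own proteases, which clear misfolded and unassembled proteins and cut regulators to length. LONP1 and the CLPXP complex work in the matrix, while YME1L1, AFG3L2, SPG7 and OMA1 sit in the inner membrane. When import, translation or the membrane potential is disturbed, OMA1 cuts DELE1, which reaches the cytosol and activates the eIF2 kinase HRI (gene EIF2AK1). Phosphorylated eIF2 lowers general translation and favours translation of ATF4, DDIT3 and ATF5, transcription factors of the integrated stress response. FGF21 and GDF15 are secreted hormones known to be induced downstream of them. Much of this relay is known to run through protein cleavage, phosphorylation and translation, which mRNA levels do not measure.

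Values are log2 RMA values, where 1 unit is a 2-fold step, and differences are doxycycline minus no doxycycline. A level of 6 was set as the floor for a gene to be counted, and 9 of the 10 genes passed it, against 13471 of 18417 genes on the array. None of the 9 differed by 1.2-fold (0.26 on the log2 scale) or more. Of all genes past the floor, 6.04% were higher by 1.2-fold or more and 4.05% were lower by that much, so a count of 0 among 9 genes is close to the background. At 1.5-fold the counts were also 0 among the 9, beside 0.364% of all genes higher and 0.111% lower. By sign alone, 5 of the 9 were higher and 4 lower, against 50.3% higher and 48.8% lower over all genes past the floor. The median absolute difference was 0.10 over the 9 genes and 0.10 over all genes past the floor. Their median signed difference was 0.07, beside 0.00177 over all genes past the floor, and it was 0.018 once FGF21, under the floor, was counted with them.

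**Figure D1:**
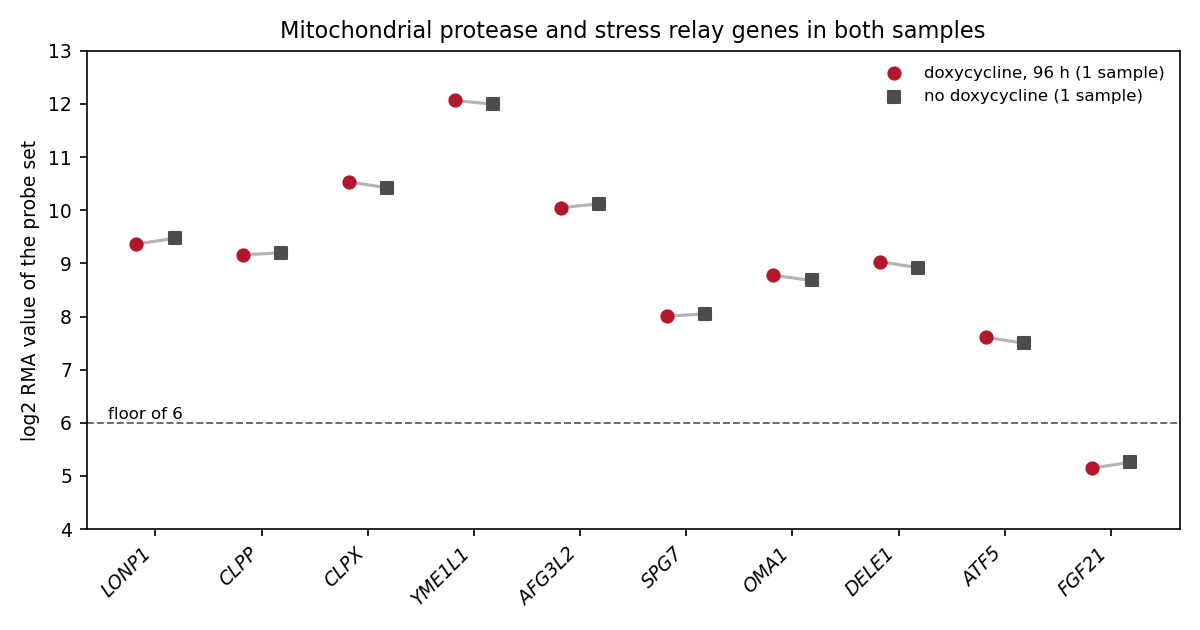
Log2 RMA value (vertical axis) of the 10 genes in the doxycycline sample (red circles) and in the sample without doxycycline (grey squares), 1 array each, with the floor of 6 dashed. The 2 values of every gene lie close together, FGF21 is the gene under the floor, and heights of different genes are not comparable because their probe sets differ.

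The labels were first checked on the gene that the hairpin targets. The probe set that BMI1 shares with the read-through COMMD3-BMI1 was 10.00 with doxycycline and 10.84 in the control. The difference, -0.84, was wider than that of any of the 10 genes. Of 11 measured K562 and erythroid markers, 11 reached the floor in both samples, and 9 reached 8, among them HBZ, HBE1, GATA1 and TFRC. Of 29 measured markers of T and NK cells, B cells, monocytes and granulocytes, and fibroblasts, 16 reached the floor in each sample, and ELANE was the one at 8 or above, at 7.94 with doxycycline and 8.27 without. Reaching the floor is therefore not by itself a sign that a gene is expressed. The summed linear signal was 668 with doxycycline and 680 without for T and NK cell markers, 299 and 332 for B cell markers, 653 and 695 for monocyte and granulocyte markers, and 785 and 785 for fibroblast markers. The erythroid sum was 18079 with doxycycline and 21405 without, and its part in the differences below was not tested. The array medians were 6.77 with doxycycline and 6.78 without.

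The matrix proteases differed little and not in one direction. LONP1, the ATP-dependent Lon protease that removes oxidised matrix proteins and also handles TFAM, was 9.36 with doxycycline and 9.47 in the control. The difference was -0.11, or 1.08-fold lower, and 47.5% of all genes past the floor lay at least as far from 0. CLPX, the unfoldase that feeds substrates into the CLPXP complex, was 10.53 with doxycycline and 10.42 in the control, a difference of 0.11 or 1.08-fold higher. CLPP, the barrel-shaped protease subunit of the same complex, was 9.16 with doxycycline and 9.20 in the control. Its difference of -0.04 was the smallest in size of the 9, and 80.8% of all genes past the floor lay at least as far from 0. The subunits of CLPXP therefore had opposite signs, 0.14 apart, with neither past 1.2-fold.

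The inner membrane proteases were likewise divided. AFG3L2 and SPG7 are the subunits of the m-AAA protease, which faces the matrix, matures the ribosomal protein MRPL32 and degrades SMDT1, a subunit of the calcium uniporter. AFG3L2 was 10.05 with doxycycline and 10.12 in the control, a difference of -0.07. SPG7, the paraplegin gene, was 8.01 with doxycycline and 8.05 in the control, a difference of -0.04. Both subunits were lower by amounts that most genes exceeded, since 63.6% of genes past the floor lay as far from 0 as AFG3L2 and 77.4% as far as SPG7. The related pseudogene AFG3L1P had a probe set of its own, at 7.12 with doxycycline and 7.16 without, and whether its transcripts reach the AFG3L2 probes was not tested. YME1L1, the i-AAA protease that faces the intermembrane space and cuts OPA1, had a higher value with doxycycline, at 12.07 against 11.99 without, a difference of 0.07 or 1.05-fold.

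The 3 relay genes from the inner membrane to the eIF2 kinase each had a small positive difference, where 50.3% of all genes past the floor were higher. OMA1, the stress-activated metalloprotease, was 8.78 with doxycycline and 8.68 in the control. Its difference was 0.10, or 1.07-fold higher, and 51.4% of all genes past the floor lay at least as far from 0. DELE1, the substrate that carries the signal to the cytosol, was 9.03 with doxycycline and 8.92 in the control. Its difference of 0.11, or 1.08-fold higher, was the largest of the 9 genes, yet 45.4% of all genes past the floor lay as far from 0. The kinase gene EIF2AK1, which belongs to a companion list, was 11.58 with doxycycline and 11.50 in the control, a difference of 0.08. None of these 3 reached 1.2-fold.

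ATF5, a bZIP transcription factor tied to the mammalian mitochondrial unfolded protein response, was 7.61 with doxycycline and 7.50 in the control, a difference of 0.11 or 1.08-fold higher. The highest fibroblast marker was at 7.91 with doxycycline and 7.86 without, so this level alone does not show that ATF5 is expressed. FGF21, a hormone made mainly by liver that mitochondrial stress is known to induce in muscle, was 5.15 with doxycycline and 5.26 in the control. Both values were under the floor, so no fold is given for FGF21, and detection calls were not used here. Its difference was -0.11, and 59.0% of the 500 genes nearest in level lay as far from 0. Of the FGF21 receptors and co-receptors, KLB, the obligate partner for FGF21, was also under the floor, at 4.86 with doxycycline and 4.97 without.

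A yardstick for each gene was the robust SD of the difference over the 500 genes nearest to it in mean level. This spread mixes array error with real differences of other genes and is not a replicate error. It was between 0.10 and 0.15 for the 9 genes past the floor and 0.21 at the level of FGF21. All 10 genes lay within 1 such SD of 0, with ratios from -0.75 for LONP1 to 0.84 for DELE1. Between 40.8% and 81.0% of the 500 nearest genes lay at least as far from 0 as the gene itself, for the 9 past the floor.

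**Figure D2:**
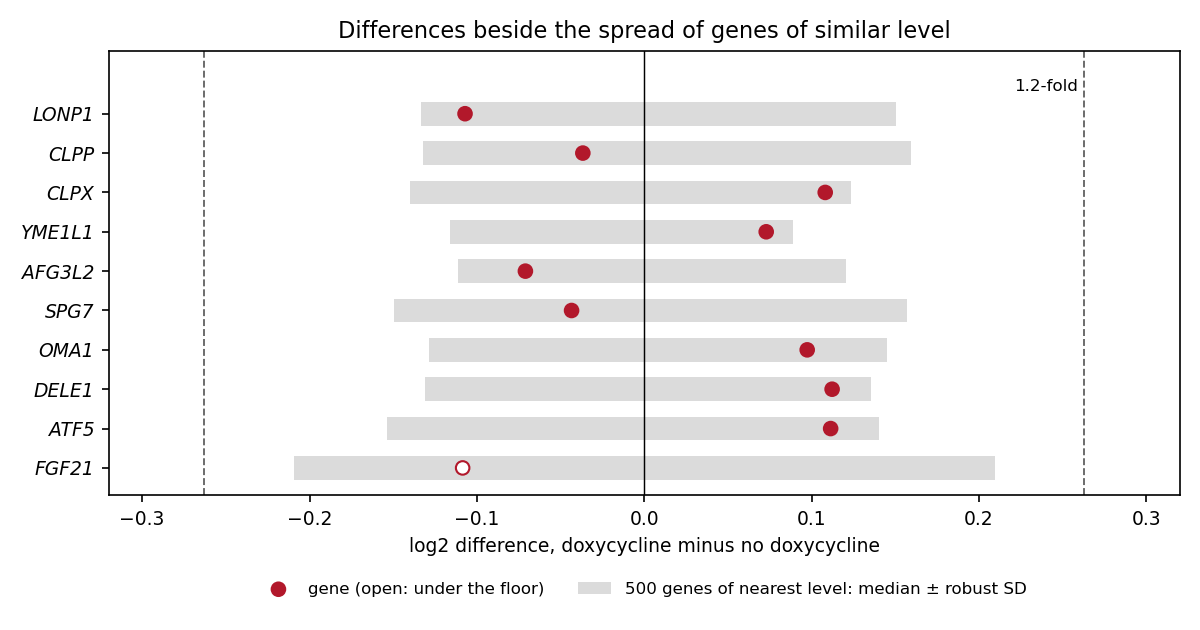
Log2 difference, doxycycline minus no doxycycline (horizontal axis), of the 10 genes (points, open for FGF21 under the floor), with a grey bar for the median ± robust SD of the 500 genes nearest in level and dashed lines at 1.2-fold. Every point lies inside its grey bar and inside the 1.2-fold lines, 5 to the right of 0 and 5 to the left.

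Promoter sequence was read for the genes because ATF4 and C/EBP partners are known to bind the C/EBP-ATF response element, searched here as TGATGNAA on both strands. The windows run from 250 bases before to 50 after each RefSeq start site on GRCh38.p14, and 8 of the 10 genes had at least 1 (12 windows in all). CLPP and YME1L1 had none in the table used here. Of the 8 genes, FGF21 was the one with a match, which runs from base -54 to -47 before its start site on the reverse strand. By windows, 1 of the 12 held a match, beside 3.62% of all 35116 windows. A cyclic AMP response element, TGACGTCA, was found in 0 of the 12 windows and in 1.85% of all windows. By their letters the motifs cannot overlap. Below are the 100 bases before the start site of FGF21, of ASNS as a stress output with the element, and of DELE1 and LONP1 as the genes with the highest and the lowest difference past the floor, the last from its more upstream window. ASNS was picked after its value was seen. Capitals mark the element.
FGF21 (chr19:48755424-48755523, plus strand): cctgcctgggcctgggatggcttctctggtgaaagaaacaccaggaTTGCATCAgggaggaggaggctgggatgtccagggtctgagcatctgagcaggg
ASNS (chr7:97872409-97872508, minus strand): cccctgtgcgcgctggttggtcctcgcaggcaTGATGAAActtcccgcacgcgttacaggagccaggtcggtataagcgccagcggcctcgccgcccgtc
DELE1 (chr5:141923771-141923870, plus strand): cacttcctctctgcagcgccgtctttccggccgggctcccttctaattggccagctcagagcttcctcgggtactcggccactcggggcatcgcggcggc
LONP1 (chr19:5720453-5720552, minus strand): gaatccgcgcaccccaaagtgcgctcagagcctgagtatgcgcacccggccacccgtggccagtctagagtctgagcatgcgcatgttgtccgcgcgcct

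Besides FGF21, the element was found in 3 of the 12 output genes with a window. These 3 had higher values with doxycycline, but so did all 16 output genes past the floor. Their direction therefore says nothing about the element. ASNS, the asparagine synthetase gene, was 10.43 with doxycycline and 9.95 in the control, or 1.40-fold higher, and its element lies from base -68 to -61. CHAC1, a glutathione-degrading enzyme gene, differed by 0.22, and MTHFD1L, a mitochondrial folate enzyme gene, by 0.08. PHGDH, DDIT4 and PSAT1 had a window without the element, and each had a wider difference than any of the 3. SLC7A11 (1.03) and ALDH1L2 (0.96) had no window, nor did PSPH, PYCR1 and SHMT2. Sites outside the windows or with other letters were not searched, so a gene without a match may still have a site. ALDH18A1, also without the element, had a smaller difference than any of the 3. The other output genes with a window and no element lay between MTHFD1L and ASNS, and the contrast was not tested. FGF21 carries the same element on the opposite strand at a similar distance and stayed under the floor in both samples. Across the array, 280 genes past the floor had a window with the element and 10323 had windows without it. The median difference was 0.04 with the element and 0.00233 without it. Of genes with the element 13.2% were higher by 1.2-fold or more, against 5.77% of genes without it. Lower by as much were 2.14% of genes with the element and 3.49% of genes without it. These are counts over genes of 2 arrays and were not tested.

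Genes that work beside the 10 were described through 8 companion lists, each by its count and median. Other mitochondrial proteases were split, with 6 of 13 higher, 7 lower and a median of -0.02. METAP1D, a mitochondrial methionine aminopeptidase, was 6.84 with doxycycline and 7.16 in the control, a difference of -0.32. XPNPEP3, a mitochondrial aminopeptidase P, was 8.49 with doxycycline and 8.22 in the control, a difference of 0.27. These 2 were the ones past 1.2-fold, beside 6.04% of all genes past the floor higher and 4.05% lower by as much. PMPCB, the catalytic subunit of the mitochondrial processing peptidase, differed by 0.22, and IMMP1L, an inner membrane peptidase subunit, by 0.21.

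Among partners and substrates of the proteases, 5 of 13 measured genes were higher and 8 lower, with a median of -0.06 and 0 past 1.2-fold. SMDT1, a substrate of the m-AAA protease, differed by 0.23, the widest of the list. PGAM5, a phosphatase cut by PARL and OMA1, differed by -0.17, PRELID1, a lipid carrier degraded by YME1L1, by -0.15, and TIMM17A, an import subunit degraded by YME1L1, by -0.14. The mitochondrial chaperones are the classical readout of the unfolded protein response of the organelle. Of 11, 3 were higher and 8 lower, or 72.7% lower beside 48.8% over all genes past the floor. Their median was -0.06, with 0 past 1.2-fold, while the median absolute difference of all genes past the floor was 0.10. HSPE1, the co-chaperonin, was 8.78 with doxycycline and 8.99 in the control, a difference of -0.21. HSCB, a co-chaperone of iron-sulphur cluster assembly, differed by -0.21, CLPB, a disaggregase, by -0.14, and DNAJC19, an import co-chaperone, by 0.12. Genes of mitophagy and dynamics had 4 of 9 higher, 5 lower and a median of -0.07, again with 0 past 1.2-fold. BNIP3, a mitophagy receptor, differed by -0.23, MFN1, an outer membrane fusion GTPase, by 0.17, BNIP3L, a mitophagy receptor of red cell maturation, by 0.12, and MFN2, the paralogue of MFN1, by -0.11.

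The widest difference was 0.19 in the eIF2 machinery that DELE1 feeds and 0.57, that of DDIT3 alone, in the transcription factor list. The medians lay closer, at 0.08 and 0.13, and the contrast was not tested. Of 15 genes for the eIF2 kinases, eIF2, eIF2B and the phosphatase subunits, 9 were higher and 6 lower, or 60.0% higher beside 50.3% over all genes past the floor, with a median of 0.08 and 0 past 1.2-fold. PPP1R15B, a constitutive eIF2 phosphatase subunit, differed by 0.19, EIF2AK2, the double-stranded RNA sensor PKR, by 0.18, EIF2S2, an eIF2 subunit, by 0.17, and EIF2AK3, the endoplasmic reticulum kinase PERK, by 0.12. Of 8 transcription factor and feedback genes, 7 were higher and 1 lower, or 87.5% higher beside 50.3% over all genes past the floor. The median was 0.13, and ATF4 is counted as higher by its brighter probe set. Past 1.2-fold upward were 2, beside 6.04% of all genes past the floor. DDIT3, which encodes CHOP, was 8.51 with doxycycline and 7.94 in the control, a difference of 0.57. TRIB3, a feedback inhibitor, differed by 0.27 and CEBPG, a dimer partner of ATF4, by 0.16. ATF4 itself had a difference of 0.23 at the brighter of its probe sets and -0.09 at the dimmer, so its direction was not settled.

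The output genes were on the high side throughout. Of 16 output genes past the floor, 16 were higher and 0 lower, with a median of 0.32. At least 1.2-fold higher were 9, beside 6.04% of all genes past the floor. At least 1.5-fold higher were 5, beside 0.364%. The list overlaps amino acid response genes already known to be high in these samples, so its direction is not independent evidence. PHGDH, which opens the serine pathway, was 10.48 with doxycycline and 9.28 in the control. SLC7A11, the cystine importer, differed by 1.03, ALDH1L2, a mitochondrial folate enzyme, by 0.96, and DDIT4, an mTORC1 inhibitor, by 0.72. GDF15, the other hormone of mitochondrial stress and named after its value was seen, was 10.24 with doxycycline and 9.89 in the control, 1.28-fold higher. Whether the 10 genes and the outputs differ in their shift was not tested, and the highest of the 10, DELE1 at 0.11, lay under 12 of the 16 outputs. Of the receptors for FGF21 and GDF15, 3 of 7 measured genes passed the floor, 1 higher and 2 lower, with a median of -0.03. FGFR3, at -0.36, was the one past 1.2-fold, beside 4.05% of all genes past the floor lower by as much. FGFR1 differed by 0.21 and FGFR4 by -0.03.

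**Figure D3:**
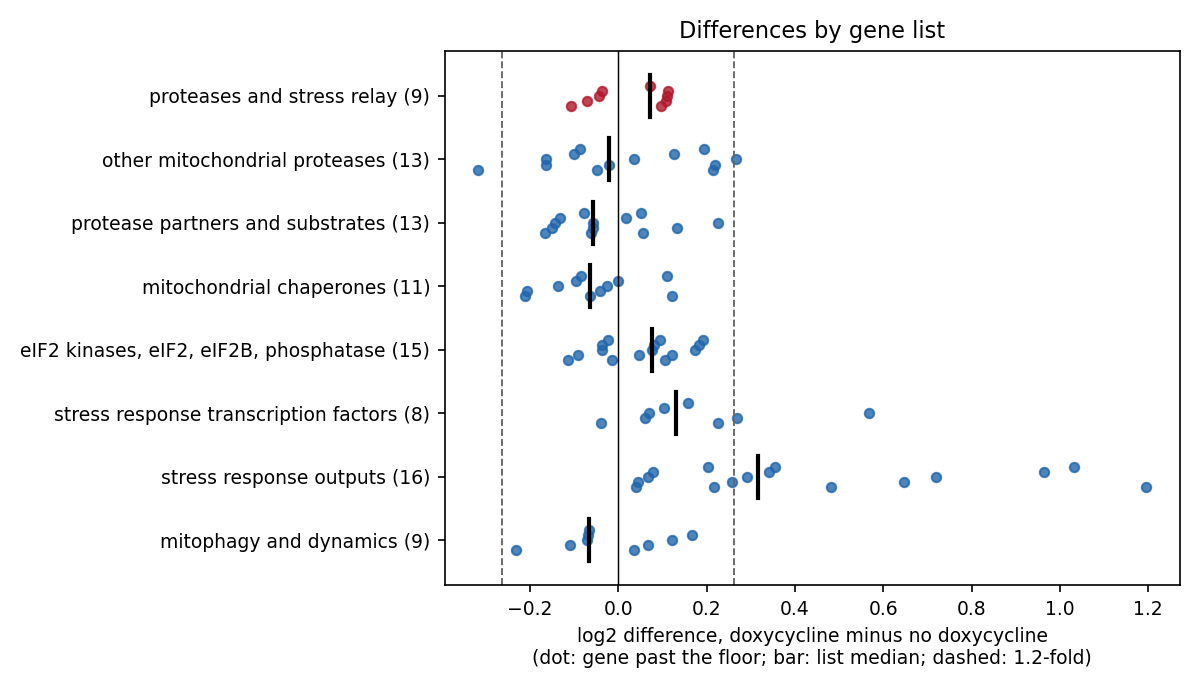
Log2 difference, doxycycline minus no doxycycline (horizontal axis), of each gene past the floor in the 9 proteases and relay genes (red) and in 7 companion lists (blue), with the list median as a black bar and 1.2-fold dashed. The red points span -0.11 to 0.11, while the stress response outputs start at 0.04 and are all right of 0.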

How the data were processed

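Total RNA of both cultures (0.3 µg, integrity number 10) was labelled with biotin by a whole-transcript protocol and hybridised to 1 Affymetrix array each, per the labels. The design text names another array type than the probe set numbers and platform annotation, which were used here. Per the submitters' processing notes, the authors used RMA in Affymetrix Expression Console 1.1.1 to make the deposited log2 values. RMA normalizes arrays jointly and shrinks differences of dim probe sets. The sources used here do not say which arrays it took together. The log base was taken from RMA and the range of values, 1.61 to 14.6.

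Probe sets with 1 symbol (19460 of 33297) were used, with symbols updated by Entrez ID to RefSeq on GRCh38.p14 (19429 matched). Probe sets with several symbols were left out, except that of BMI1. A gene took its probe set with the highest mean. Genes whose higher value was under 6 were not counted. The robust SD is 1.4826 times the median absolute deviation. All 10 genes are named, and in each companion list up to 4 past the floor with the widest difference. Values are also given for EIF2AK1, KLB, ASNS, CHAC1, MTHFD1L and GDF15, which this rule did not select. The genes and lists were chosen with earlier results of these data known. Alternatives were the mean over probe sets, centring, quantile normalization, a loess trend (span 0.3) and other floors. The step from probe sets to gene differences was tested on simulated data, with planted changes wider than any of the 10 genes showed. The spread of the nearest genes, the list counts, the alternatives and the promoter search were not tested this way. Python 3.11.15, numpy 2.4.6, pandas 2.3.3 and statsmodels 0.14.6 were used. Promoter sequences are from RefSeq. The number of arrays limits the precision.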

Additional observations from a re-analysis of the deposited data

How the results depend on the processing

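Of 158 recomputed values, 152 moved by less than the spread set for them (the robust SD of the 500 nearest genes for a gene, the robust SD of the list over the square root of its size for a median, 1.5 times for a count), 6 moved by more and 0 reversed. A reversal could be counted only for a difference or median of at least 1.2-fold before recomputation, and never for a count. The 0 was therefore fixed in advance for the 10 differences, the counts and every list median except that of the output genes. The output median stayed between 0.28 and 0.34. The 10 differences kept their sign in 40 of 40 recomputations and shifted by at most 0.02. Part of this was fixed in advance. Each gene had 1 probe set, so the mean over probe sets could not change its value. Centring shifted all 10 by 1 common amount, smaller than the smallest difference. The signs were therefore free to change only with quantile normalization and the loess trend. The counts past 1.2-fold and 1.5-fold stayed at 0 with every alternative. Here too most of the outcome was fixed in advance, since all 10 genes, FGF21 included, lay well under 1.2-fold. Other floors, the mean over probe sets and centring could therefore not change these counts. The median over the proteases and relay genes is not a stable value: it was 0.018 without a floor, with a floor of 5 and with a floor of 8, because 1 gene entering or leaving moves the middle between a positive and a negative value. For the transcription factor and feedback list, the median was 0.087 with the mean over probe sets, where ATF4 enters with both of its own, 0.19 with a floor of 7 and 0.23 with a floor of 8, where fewer genes are left. No paired analysis was possible because each group held 1 sample, and no sample could be left out. RMA compresses dim probe sets, so the value of FGF21 limits what can be said of it.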
